A study of Homo sapiens with 4 samples.

Results

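The genes described here encode splicing regulators: hnRNP proteins, SR proteins, the kinases that phosphorylate SR proteins, and other RNA-binding proteins that set which exons are kept. They were chosen by name from a list of 60 genes, and 59 of these are among the 20329 genes of the deposited expression table. SRSF12 was not analysed here. Of the 59 genes, 58 had a mean of at least 1 FPKM over the 4 libraries and were compared, together with 13928 genes in all. The gene left below that level was ESRP1. FPKM stands for fragments per kilobase, scaled for gene model length and library size, so levels given in it can be compared between genes.

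Spliceosomes choose among alternative splice sites with the help of proteins that bind the pre-mRNA. SR proteins mostly bind exonic enhancers and favour inclusion of an exon, whereas hnRNP proteins often bind silencers and favour skipping, although both classes can act either way depending on where they bind. Many of these proteins regulate their own messenger RNAs and each other's, in part through exons that send a transcript to nonsense-mediated decay.

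RNA was sequenced from BM1 (1833) and LM2 (4175), derivatives of the human triple-negative breast cancer line MDA-MB-231 that are described as coming from bone and from lung metastasis. The groups were BM1 cells with a non-specific shRNA, BM1 cells with an shRNA against hnRNPM, LM2 cells with the non-specific shRNA and LM2 cells with the hnRNPM shRNA, with 1 library each. All 4 cultures carried a stably integrated lentiviral shRNA, so none was untreated, and the labels do not say how many hairpins were used. The title of the series names the joint control of splicing by hnRNPM and ESRP1 as its subject. The table gives 1 level per gene, so exon use and isoforms were not analysed here.

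Depth, inferred from the spacing of the low values, was 22800000 to 41500000 fragments per library, and mitochondrial genes took 8.80% to 12.8% of each library's summed FPKM, with the higher shares in the knockdown libraries. The 5 genes expected to be high in these lines (VIM, KRT8, KRT18, CD44 and ANXA2) were all above 100 FPKM in every library. Of 5 genes expected to be low in triple-negative cells, ERBB2 and GATA3 were tested, with sums of 16.4 to 24.7 FPKM. ERBB2 alone was between 13.5 and 21.9 FPKM, and ESR1, PGR and FOXA1 were not analysed here. Of 4 fibroblast markers 3 were listed, and their summed level was 3.34 FPKM in BM1 control, 14.8 in BM1 knockdown, 29.9 in LM2 control and 78.8 in LM2 knockdown cells, led by COL1A1. It was higher in the knockdown library of each line, and its part in the results below was not tested. Of 4 endothelial markers 2 were listed, with sums of 0.480 to 1.55 FPKM, and the 5 blood markers were not analysed here. In bulk RNA, fewer cells of a kind and less RNA per cell cannot be told apart.

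As a group the regulators were abundant. Their median level was 48.8 FPKM, against 9.15 FPKM over all genes tested. Of the 58 genes, 16 had a mean of at least 100 FPKM, 36 lay from 10 to under 100 FPKM and 6 from 1 to under 10 FPKM. The most abundant was HNRNPA2B1, a core hnRNP protein that packages pre-mRNA, at 461 FPKM in BM1 control, 411 in BM1 knockdown, 360 in LM2 control and 307 in LM2 knockdown cells. HNRNPC, which binds uridine tracts, was at 423, 351, 372 and 292 FPKM in the same order of libraries, which is kept below. HNRNPK, which binds cytosine-rich RNA, was at 374, 287, 410 and 336 FPKM. All 3 were lower in the knockdown library than in the control library of each line, by less than 1.5-fold, although the sign for HNRNPA2B1 in BM1 turned with quantile normalization. The next by level, HNRNPA1 and HNRNPL, are described with their families.

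**Figure D1:**
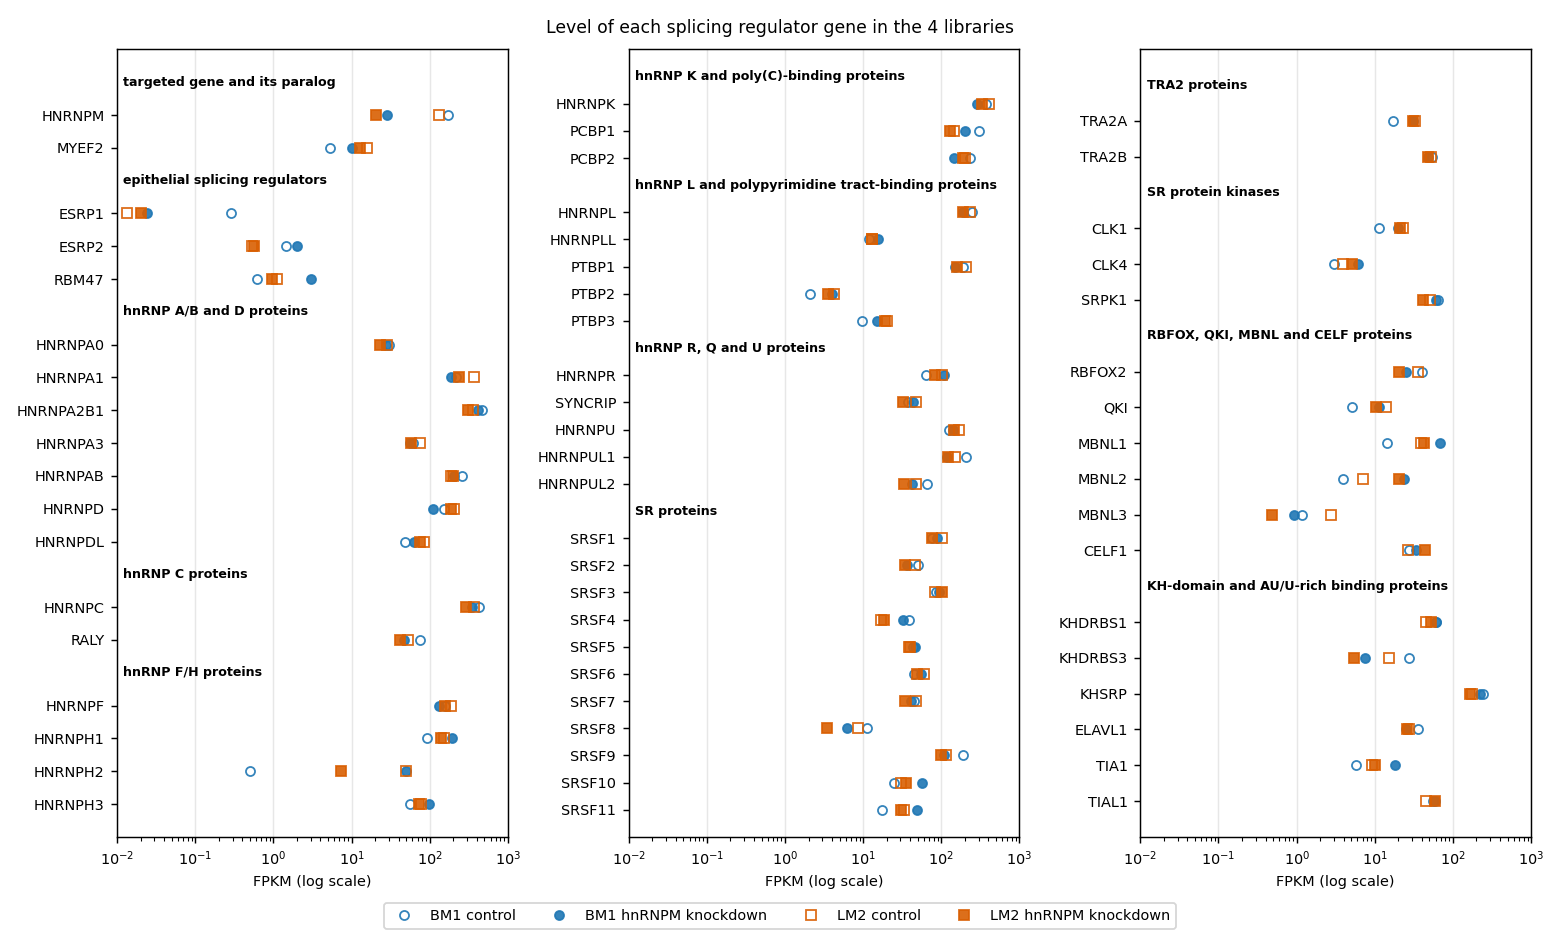
FPKM on a log scale of each of the 59 splicing regulator genes, grouped by role, with 1 symbol per library (circles BM1, squares LM2, open control, filled hnRNPM knockdown). Most genes have 4 symbols close together, whereas HNRNPM, KHDRBS3 and MBNL2 separate by treatment and the BM1 control symbol of HNRNPH2 stands at 0.505 FPKM, far to the left of the other libraries.

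The targeted gene was checked first. HNRNPM (ENSG00000099783.11, chromosome 19, 8509651 to 8553998 on the plus strand as the table lists it) was at 171 FPKM in BM1 control, 28.4 in BM1 knockdown, 132 in LM2 control and 20.3 in LM2 knockdown cells. Both knockdown libraries lay below both controls, at 16.6% of control in BM1 and 15.4% in LM2, the direction that the labels give. None of the 50-base stretches of its longest coding transcript occurs in another annotated gene. Its start overlaps ELAVL1 by 275 bases and RP11-886P16.10 by 831 bases, both on the opposite strand. RP11-886P16.10 was at 0.205, 0.961, 7.39 and 0.552 FPKM. ELAVL1, which encodes the RNA-stabilising protein HuR, was at 35.3, 24.9, 27.2 and 26.0 FPKM. Its model runs from 8023463 to 8509925 and overlaps several other genes, so this level is uncertain. Among them, in BM1 control, are CD320 (69.9 FPKM) and NDUFA7 (36.8 FPKM) on the same strand and RPS28 (264 FPKM) on the opposite strand.

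The fit over both lines (limma, with a term for cell line, adjusted over all genes tested) called 3 of the 58 regulators below a threshold of 0.05, 1 of them higher and 2 lower after knockdown. Over all genes tested it called 5.47%, with 2.71% higher and 2.76% lower. HNRNPM fell by 2.59 ± 0.25 on the log2(FPKM + 1) scale (limma standard error, fit on 2 pairs of libraries, limma adjusted p 0.00318). The other 2 were MBNL2 and KHDRBS3. At an unadjusted p of 0.05 limma had 9 of the 58 regulators, against 24.9% of all genes tested. The median change of the 58 genes was -0.12, against -0.01 over all genes tested. Nothing in the labels says that the lines stand for more than 1 culture each per treatment. The 1 residual degree of freedom per gene is the gap between the changes in the 2 lines. limma moderated it with a prior of 7.7 degrees of freedom drawn from all genes tested. These p-values therefore do not measure the spread between replicate cultures. Each standard error given with ± was moderated in the same way.

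MBNL2 encodes a muscleblind protein, which binds YGCY motifs and regulates exons during differentiation. The gene (ENSG00000139793.18, chromosome 13, 97873688 to 98046374) was at 3.95 FPKM in BM1 control, 24 in BM1 knockdown, 7.12 in LM2 control and 20.5 in LM2 knockdown cells. Both knockdown libraries were above both controls, by 6.07-fold in BM1 and 2.88-fold in LM2. It rose by 1.87 ± 0.30 (log2, standard error, limma adjusted p 0.0150). It was the only regulator at least 2-fold higher in both lines (1.92% of all genes tested).

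KHDRBS3 encodes the STAR-family protein SLM2 (T-STAR), which binds UAA-rich repeats. It was at 27.6 FPKM in BM1 control, 7.55 in BM1 knockdown, 15 in LM2 control and 5.45 in LM2 knockdown cells. Both knockdown libraries were below both controls, at 27.4% of control in BM1 and 36.2% in LM2. It fell by 1.53 ± 0.26 (log2, standard error, limma adjusted p 0.0184). With HNRNPM it made up the 2 regulators at least 2-fold lower in both lines (1.95% of all genes tested). Its relative KHDRBS1 (Sam68) was at 60.7, 60.9, 44.9 and 52.9 FPKM, within 1.5-fold in each line.

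The 3 calls depend on the settings. With a pseudocount of 0.1 in place of 1, without the filter on low genes, with quantile normalization, or with the trend of each library with GC content and gene length removed, limma called 0 of the regulators at an adjusted p of 0.05, with 5, 6, 5 and 12 at an unadjusted p of 0.05, where 21.8%, 18.4%, 23.4% and 22.8% of all genes were. Their changes stayed between -2.64 and -2.39 for HNRNPM, 1.47 and 2.04 for MBNL2 and -1.65 and -1.36 for KHDRBS3 in these 4 settings. Leaving out the BM1 control library gave limma adjusted p-values of 0.613, 0.613 and 0.714 for HNRNPM, MBNL2 and KHDRBS3, and leaving out the BM1 knockdown gave 0.293, 0.656 and 0.656. Leaving out the LM2 control gave 0.326 for each, and leaving out the LM2 knockdown gave 0.226, 0.337 and 0.595, and none of these fits has a term for line.

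**Figure D2:**
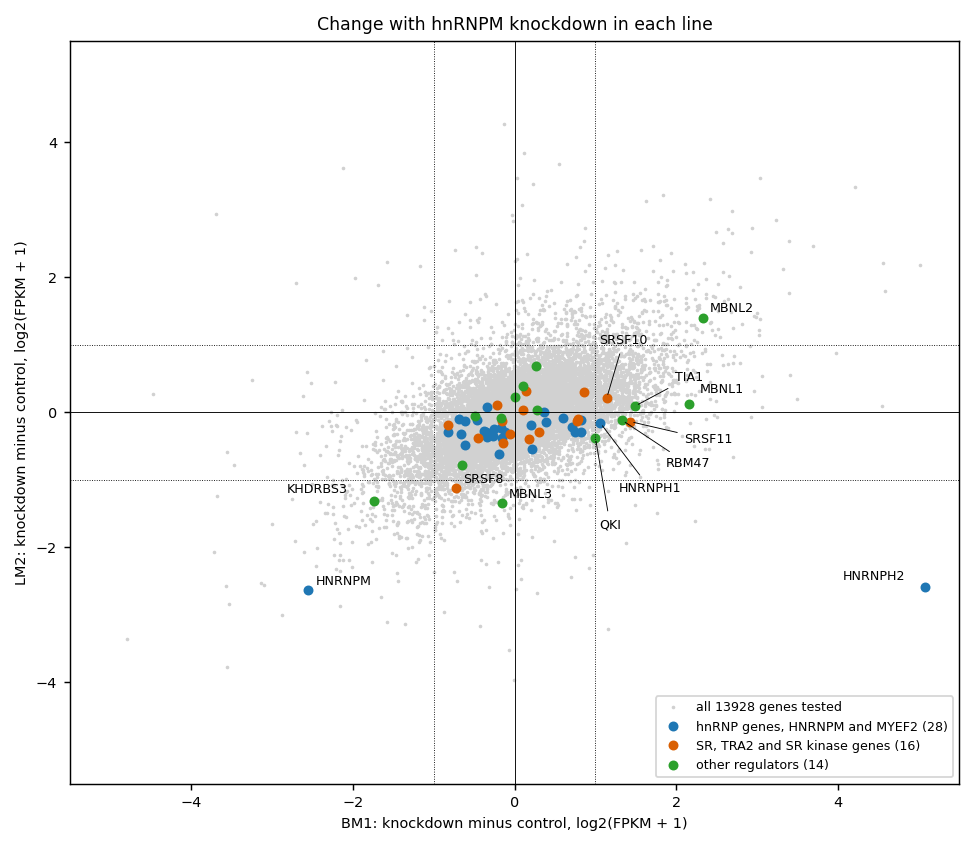
Change with hnRNPM knockdown in BM1 (x axis) and LM2 (y axis), each as knockdown minus control on the log2(FPKM + 1) scale, with 1 point per gene, the 13928 genes tested in grey, the splicing regulators coloured by class and dotted lines at 2-fold. HNRNPM and KHDRBS3 lie at the lower left, MBNL2 at the upper right, HNRNPH2 alone at the lower right, and 7 further genes lie to the right of the BM1 line, within 2-fold in LM2.

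Within each line there is 1 library per treatment, so the changes below rest on single libraries and carry no p-value. A difference of at least 2-fold, 1 on the log2(FPKM + 1) scale, was counted. In BM1, 11 of the 58 regulators passed it, 9 higher and 2 lower in the knockdown cells. The share of all genes tested was 16.3%, with 10.1% higher and 6.20% lower. In LM2 it was 6 of 58, 1 higher and 5 lower, against 8.06% of all genes, with 3.83% higher and 4.24% lower. At 1.5-fold the regulators numbered 17 higher and 10 lower in BM1 (21.0% and 16.8% of all genes, 37.8% together) and 2 higher and 7 lower in LM2 (10.7% and 13.9%, 24.5% together). In both lines together 28 of the 58 stayed within 1.5-fold, which 52.1% of all genes did.

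Small shifts in LM2 went mostly downward. There 45 of the 58 regulators were below control in the knockdown cells by any amount, among them 25 of the 26 hnRNP genes other than HNRNPM, against 53.5% of all genes and 55.9% of the 680 genes with a mean of at least 100 FPKM. Their median change in LM2 was -0.27 for the hnRNP genes and -0.14 for the 13 SR and TRA2 genes, against -0.04 for all genes. The exception among the hnRNP genes was HNRNPAB, at 189 FPKM in the control and 200 in the knockdown cells. HNRNPLL, at 99.7% of control, was counted as below it. The 26 genes leave out HNRNPM and MYEF2 and take in RALY, SYNCRIP, PCBP1, PCBP2, PTBP1, PTBP2 and PTBP3. Under size factors, quantile normalization, removal of mitochondrial genes or removal of the GC and length trend, 24 to 26 of the 26 stayed below control. In BM1, 29 of 58 regulators and 16 of the 26 hnRNP genes were below control, against 49.7% of all genes and 68.8% of those with a mean of at least 100 FPKM.

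The directions in the 2 lines were then set side by side. The knockdown library was above control in BM1 and below it in LM2 for 18 of the 58 regulators, against 17.3% of all genes. It was below control in both lines for 27 (36.2% of all genes), above it in both for 11 (33.0%), and below it in BM1 but above it in LM2 for 2 (13.6%). Whether the change itself differs between the lines was not tested for any gene, since 4 libraries leave no degree of freedom for it.

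HNRNPM's paralog and the epithelial splicing regulators came next. MYEF2, which encodes a protein with RNA-binding domains like those of hnRNPM, was at 5.27, 10.1, 15.9 and 12.9 FPKM. The BM1 control stood lowest, and the knockdown was above control in BM1 and below it in LM2 (0.27 ± 0.31 over both lines, log2, standard error, limma adjusted p 0.636). It overlaps SLC24A5 by 8042 bases on the opposite strand, which was at 0.933 to 2.89 FPKM.

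ESRP1 and ESRP2 encode epithelial proteins that favour epithelial exon choices. ESRP1 was at 0.288 FPKM in BM1 control, 0.0242 in BM1 knockdown, 0.0134 in LM2 control and 0.0202 in LM2 knockdown cells, all below the level tested. ESRP2 was at 1.47, 2, 0.528 and 0.560 FPKM, and its mean of 1.14 FPKM reached the level tested only through the BM1 libraries. Both BM1 libraries were above both LM2 libraries for ESRP2, with a difference between lines of -0.82 ± 0.25 (LM2 minus BM1, log2, standard error) that missed the threshold (limma adjusted p 0.105). ESRP2 overlaps NFATC3 on the opposite strand and RP11-96D1.11 on the same strand, each by less than 150 bases. RBM47, another epithelial splicing regulator, was at 0.614, 3.06, 1.12 and 0.950 FPKM, so the BM1 knockdown library stood above the other 3. Its mean of 1.44 FPKM reached the level tested only through that library. Its 2-fold differences, in BM1 and between the knockdown libraries, use the same library.

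Among the hnRNP A/B and D genes, whose products bind exonic silencers and AU-rich RNA, none of 7 changed by 2-fold in either line. Of all genes tested, 16.3% did in BM1 and 8.06% in LM2. HNRNPA1, which represses exons and competes with SR proteins, was at 215, 188, 367 and 238 FPKM. The LM2 control stood highest, and the LM2 knockdown was at 0.648 of it, the only 1.5-fold difference between treatments in this family. The 7 changes ranged from -0.47 to 0.39 in BM1 and from -0.62 to 0.08 in LM2. Of the 7 genes, 5 were lower in both lines, against 36.2% of all genes. In HNRNPA1, 28.8% of the 50-base stretches of its longest coding transcript also occur in other annotated genes, mostly processed pseudogenes. Its level therefore depends on how shared reads were counted. The same holds for SRSF1 (58.5% shared with other genes), HNRNPL (32.3%), PCBP2 (24.4%), HNRNPA3 (17.5%), HNRNPK (13.3%) and HNRNPC (10.9%). HNRNPH2 and HNRNPUL2 are treated below. HNRNPC and its relative RALY were lower in the knockdown cells of both lines. RALY was at 75.0, 47.2, 52.3 and 41.5 FPKM (-0.49 ± 0.26, log2, standard error, limma adjusted p 0.276) and overlaps EIF2S2 on the opposite strand.

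The hnRNP F/H genes held the largest difference of the whole set. Their products bind runs of guanines and act as enhancers or silencers according to position. HNRNPH2 (ENSG00000126945.8, chromosome X, 100663283 to 100669121) was at 0.505 FPKM in BM1 control, 49.9 in BM1 knockdown, 49.1 in LM2 control and 7.35 in LM2 knockdown cells. BM1 knockdown and LM2 control were alike, the LM2 knockdown was lower, and the BM1 control was lowest of all, 98.8-fold below the knockdown of the same line.

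On the log2 scale HNRNPH2 was 5.08 higher with knockdown in BM1 and 2.59 lower in LM2, so the fit over both lines gave 1.25 ± 1.32 (standard error, limma adjusted p 0.600). In fits with no term for line that estimate was -1.28 without the BM1 control and -0.06 without the BM1 knockdown library. HNRNPH2 was the only regulator that changed at least 2-fold in opposite directions in the 2 lines, which 0.129% of all genes did (0.955% at 1.5-fold, where it was again the only one). The gene lies within a readthrough locus, RPL36A-HNRNPH2, on the same strand, and this entry was at 17.2, 4.11, 3.95 and 2.49 FPKM. The sum of both entries was 17.7, 54.0, 53.1 and 9.84 FPKM, so by the sum the LM2 knockdown stood lowest and the BM1 control next. The gap between treatments was smaller by the sum: 1.55 higher in BM1 and 2.32 lower in LM2 on the log2 scale. In the BM1 control alone the readthrough entry was far above HNRNPH2 itself.

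HNRNPH1 is the close paralog of HNRNPH2. The coding sequences of both are 1350 bases long in GENCODE 29 and match at 87.6% of positions with 167 differences, and the longest identical run is 50 bases. The first 30 coding bases of each, 5′ to 3′, are printed here to show how closely the paralogs run together and where they part, with the 6 bases that differ in capitals.
HNRNPH1: atgatgTtgGgcacggaaggTGgAgagggA
HNRNPH2: atgatgCtgAgcacggaaggCAgGgagggG
Of the 50-base stretches of the HNRNPH2 transcript, 0.0460% occur in HNRNPH1 and 14.5% in the readthrough gene.

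HNRNPH1 was at 91.8, 193, 154 and 138 FPKM. The BM1 control was lowest and the BM1 knockdown highest, a 2.10-fold difference, while the LM2 libraries lay between them and within 1.5-fold of each other. HNRNPH3 was at 55.4, 98.4, 78.3 and 72.2 FPKM, with the same order. HNRNPF, also of this family, was at 157, 131, 189 and 158 FPKM, lower with knockdown in both lines. Neither HNRNPH1 (0.45 ± 0.33, log2, standard error, limma adjusted p 0.428) nor the other members of the family passed the test over both lines.

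The poly(C)-binding genes and HNRNPK were lower with knockdown in both lines, by 0.38 to 0.69 in BM1 and 0.10 to 0.28 in LM2 as sizes on the log2 scale. PCBP1, which also regulates translation and stability of its targets, was at 305, 199, 144 and 131 FPKM. Both BM1 libraries were above both LM2 libraries, with the BM1 control highest. It overlaps PCBP1-AS1 on the opposite strand, at 135, 122, 77.1 and 55.0 FPKM. PCBP2 was at 235, 146, 201 and 188 FPKM.

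HNRNPL, which binds CA repeats, was at 244, 190, 230 and 188 FPKM, and PTBP1, which binds pyrimidine tracts and represses exons, at 191, 151, 207 and 159 FPKM. Both were lower in the knockdown cells of each line by less than 1.5-fold. The PTB paralogs ran differently. PTBP2, the neuronal form whose exon PTBP1 represses, was at 2.06, 4, 4.23 and 3.51 FPKM, and PTBP3 at 9.69, 15.2, 20.3 and 19.2 FPKM. In both paralogs the BM1 control stood lowest. HNRNPLL was at 11.9 to 15.7 FPKM in all 4 libraries.

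Of the hnRNP R, Q and U genes, HNRNPUL1 was at 207, 117, 148 and 121 FPKM and HNRNPUL2 at 64.7, 42.0, 46.8 and 33.3 FPKM. Both knockdown libraries were below both controls in each gene, with changes over both lines of -0.56 ± 0.27 and -0.54 ± 0.25 (log2, standard error, limma adjusted p 0.236 and 0.223). HNRNPUL1 overlaps TGFB1 by 6012 bases on the opposite strand. TGFB1 was also lower with knockdown within each line, at 78.4, 61.5, 51.6 and 38 FPKM, but both its BM1 libraries were above both LM2 libraries. HNRNPUL2 shares 45.2% of its 50-base stretches with the readthrough gene HNRNPUL2-BSCL2, and the sum of both was 65.9, 44.5, 48.8 and 35.9 FPKM. HNRNPR, at 64.3, 109, 101 and 82.5 FPKM, again had its lowest level in the BM1 control, and so did HNRNPU, at 124, 143, 166 and 146 FPKM. SYNCRIP (hnRNP Q) was lowest in the LM2 knockdown, at 37.6, 44.0, 47.9 and 32.6 FPKM.

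Of the 11 SR genes tested, none passed the test over both lines, which 5.47% of all genes did. At 2-fold, 2 were higher in BM1 (10.1% of all genes tested) and 1 was lower in LM2 (4.24%). SRSF10 and SRSF11 are the 2 higher in BM1. SRSF10, a splicing repressor when dephosphorylated, was at 25.0, 56.3, 30.1 and 35 FPKM, so the BM1 knockdown stood above the other 3 libraries (0.68 ± 0.30 over both lines, log2, standard error, limma adjusted p 0.198). SRSF11 was at 17.6, 49.0, 33.5 and 30.3 FPKM, with the BM1 control lowest and the LM2 libraries within 1.5-fold of each other.

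SRSF8, a retrogene copy of SRSF2, was at 11.1, 6.29, 8.69 and 3.43 FPKM. Both knockdown libraries were below both controls (-0.93 ± 0.26, log2, standard error), and the change missed the threshold (limma adjusted p 0.0733). The table has a second SRSF8 entry at the same place, with values of 0.167, 1.26, 0.1 and 1.07 FPKM, which run the other way at a level below the one tested. SRSF2 itself, which binds guanine- and cytosine-rich enhancers, was at 50.5, 36.8, 45.6 and 34.7 FPKM, also with both knockdown libraries below both controls.

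SRSF4 separated the lines, not the treatments. Its 2 BM1 libraries had 38.2 (control) and 32.6 FPKM (knockdown), and its 2 LM2 libraries had 16.9 (control) and 18.3 FPKM (knockdown). Both LM2 libraries were below both BM1 libraries (-0.97 ± 0.26, LM2 minus BM1, log2, standard error), which missed the threshold (limma adjusted p 0.0742). SRSF9 was at 192, 108, 115 and 100 FPKM, with the BM1 control above the other 3. The remaining SR genes (SRSF1, SRSF3, SRSF5, SRSF6 and SRSF7) lay between 34.6 and 102 FPKM and within 1.5-fold of control in each line. SRSF3, whose protein promotes its own decay-inducing exon, was at 84.9, 93.6, 82.3 and 102 FPKM.

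TRA2A and TRA2B encode SR-like proteins that bind GAA-rich enhancers. TRA2A was at 17.2, 30.5, 33.1 and 30.8 FPKM, with the BM1 control below 3 alike libraries, and TRA2B was at 53.9, 48.5, 52.9 and 48.4 FPKM. The SR protein kinases split in the same way. CLK1 was at 11.3, 20.1, 23.2 and 21.0 FPKM and CLK4 at 2.97, 6.17, 3.95 and 5.12 FPKM, each lowest in the BM1 control. SRPK1, which phosphorylates SR proteins in the cytoplasm, was at 63.7, 61.2, 51.4 and 41.0 FPKM.

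Besides MBNL2, the RBFOX, QKI, MBNL and CELF genes included several with large differences in a single library. MBNL1, the main muscleblind protein of most tissues, was at 14.4, 68.0, 38.8 and 42.2 FPKM. It was 4.71-fold higher with knockdown in BM1 and 1.09-fold in LM2 (1.14 ± 0.43 over both lines, log2, standard error, limma adjusted p 0.147). The BM1 control was lowest, the BM1 knockdown highest and the LM2 libraries alike. MBNL3 was at 1.17, 0.939, 2.78 and 0.482 FPKM (-0.76 ± 0.32, log2, standard error, limma adjusted p 0.188), all low levels with the LM2 control highest. Its mean of 1.34 FPKM reached the level tested only through the LM2 control, which its 2-fold difference in LM2 also uses. QKI, which binds ACUAA-type motifs and also acts on circular RNA formation, was at 5.08, 11.2, 13.8 and 10.4 FPKM, with the BM1 control lowest. Its BM1 difference is just at 2-fold on the log2(FPKM + 1) scale (a difference of 1) and was 0.97 with size factors and 0.92 with quantile normalization.

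RBFOX2, which binds UGCAUG and regulates mesenchymal exons, was at 40.0 FPKM in BM1 control, 25.2 in BM1 knockdown, 35.4 in LM2 control and 20.2 in LM2 knockdown cells. Both knockdown libraries were below both controls, at 63.0% and 57.0% of control. The change of -0.71 ± 0.25 (log2, standard error) missed the threshold (limma adjusted p 0.129). CELF1, which binds GU-rich RNA, was at 27.8, 33.7, 26.8 and 43.5 FPKM, above control in both lines without passing the test (limma adjusted p 0.299). At 1.5-fold, HNRNPM, KHDRBS3, SRSF8 and RBFOX2 were the 4 regulators lower in both lines, against 7.25% of all genes, and MBNL2 was the only one higher in both, against 6.17%.

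**Figure D3:**
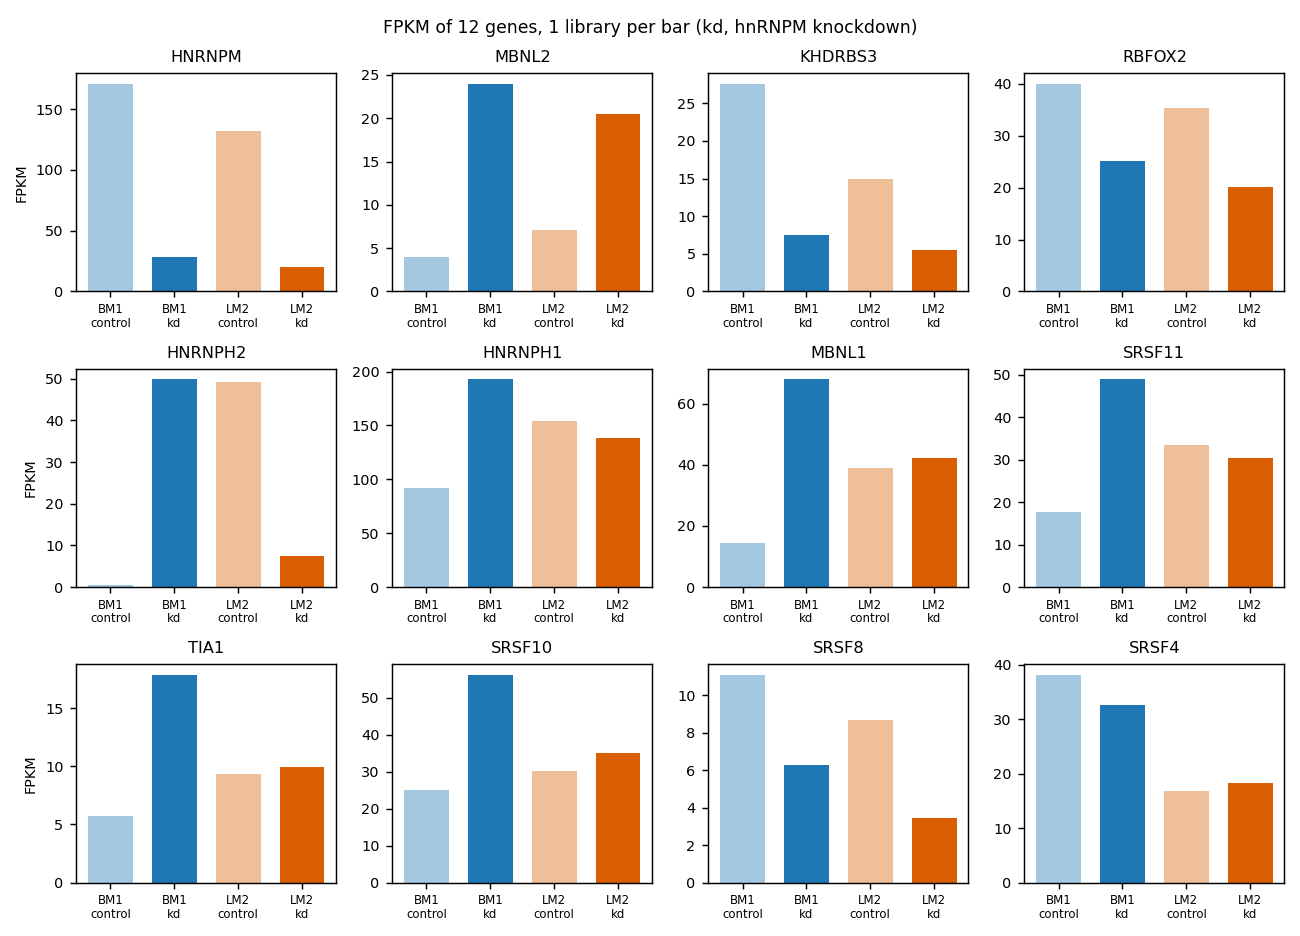
FPKM of 12 splicing regulator genes, with 1 bar per library from a base of 0 and no error bars because each bar is a single library. HNRNPM, KHDRBS3 and RBFOX2 are lower and MBNL2 is higher in both knockdown libraries, HNRNPH2, HNRNPH1, MBNL1, SRSF11 and TIA1 have their lowest bar in the BM1 control, and SRSF4 differs by line.

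TIA1 and TIAL1 bind U-rich RNA next to weak splice sites and help U1 recruitment. TIA1 was at 5.73, 17.9, 9.31 and 9.97 FPKM, with the BM1 control lowest and the BM1 knockdown highest (0.79 ± 0.35, log2, standard error, limma adjusted p 0.198). It overlaps C2orf42 on the same strand, at 6.05, 6.56, 4.38 and 4.69 FPKM, and shares 3.52% of its 50-base stretches with it. TIAL1 was at 54.8, 58.6, 45.4 and 59.6 FPKM. KHSRP, which promotes decay of AU-rich messages, was at 246, 219, 174 and 165 FPKM.

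In HNRNPH2, MBNL1, QKI, TIA1 and others above, the BM1 control library held the lowest level. Over all genes of the set it was the lowest of the 4 libraries for 22 of the 58 regulators (31.0% of all genes tested) and the highest for 21 (29.7%). The LM2 knockdown library was the lowest for 19 (26.5%) and the highest for 3 (20.6%). The BM1 knockdown was the lowest for 9 (23.0%) and the highest for 15 (26.8%), and the LM2 control was the lowest for 8 (19.5%) and the highest for 19 (23.0%). The comparison of knockdown with control in BM1 and that of the 2 control libraries share the BM1 control.

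The BM1 differences moved with the GC content of the transcripts. The 17 regulators at least 1.5-fold higher in the BM1 knockdown had a median GC content of 38.3% (range 34.7% to 51.6%), and the 10 at least 1.5-fold lower had 52.2% (43.9% to 56.3%). The median was 42.4% for the 58 regulators and 48.6% for all genes tested with a GC value. Across the 58 genes, which share the same 2 libraries and are not independent replicates, the correlation of the BM1 difference with GC content was -0.45 (Pearson) and -0.59 (Spearman). Across 13723 genes the values were -0.38 and -0.43. In LM2 they were -0.13 and -0.05 for the regulators and -0.16 and -0.19 for all genes.

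With the trend of each library with GC content and length removed, an alternative chosen after the data were seen, the regulators at 2-fold in BM1 fell in number from 11 to 7. SRSF10 went from 1.14 to 0.52, SRSF11 from 1.43 to 0.89, QKI from 1 to 0.34 and TIA1 from 1.49 to 0.83. Those that stayed were RBM47, HNRNPH1, HNRNPH2, MBNL1, MBNL2, HNRNPM and KHDRBS3. MBNL1 went from 2.16 to 1.61, MBNL2 from 2.33 to 1.68 and HNRNPH2 from 5.08 to 4.84, while HNRNPH1 went from 1.06 to 1.33. Among smaller differences, HNRNPR went from 0.75 to -0.05, PTBP2 from 0.71 to -0.15 and PTBP3 from 0.60 to -0.15. The part of GC content in these differences was not tested beyond this.

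**Figure D4:**
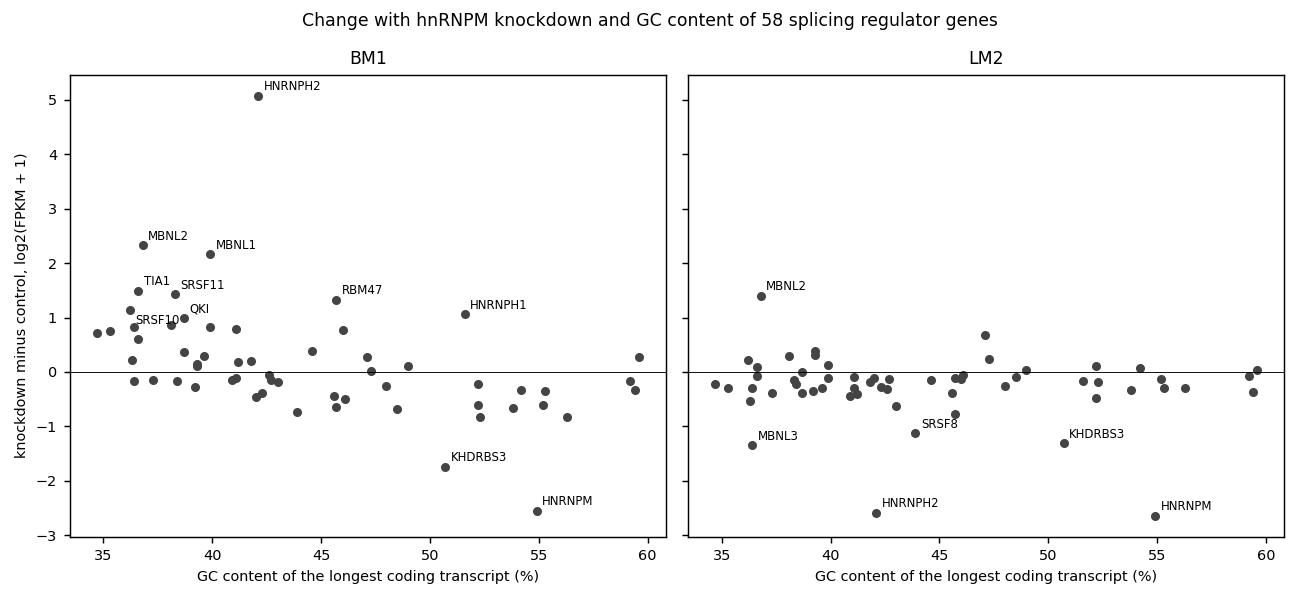
Change with hnRNPM knockdown on the log2(FPKM + 1) scale against the GC content of the longest coding transcript for 58 splicing regulator genes, in BM1 (left) and LM2 (right), with 1 point per gene. In BM1 the points fall from left to right (Spearman rho -0.59) and in LM2 they lie near a level line (Spearman rho -0.05), apart from the named genes.

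The 2 lines were then compared over both treatments. None of the 58 regulators passed an adjusted p of 0.05 in limma, where 4.35% of all genes did (2.31% higher and 2.04% lower in LM2). At an unadjusted p of 0.05 limma had 7 of the 58, against 22.4% of all genes. Besides SRSF4, PCBP1 and ESRP2, the largest differences were in HNRNPH2 (1.23 ± 1.32, LM2 minus BM1, log2, standard error), MYEF2 (0.88 ± 0.31, limma adjusted p 0.149) and PTBP3 (0.66 ± 0.28, limma adjusted p 0.206). PCBP1 differed by -0.84 ± 0.26 (limma adjusted p 0.108).

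Between the 2 control libraries, 4 regulators were at least 2-fold higher in LM2 (MYEF2, HNRNPH2, QKI and MBNL1) and 2 lower (PCBP1 and SRSF4), against 6.98% and 5.26% of all genes, 12.2% together. At 1.5-fold, 16 were higher and 5 lower, against 19.1% and 14.9%, 34.0% together. With the GC and length trend removed only HNRNPH2 and CLK1 passed 2-fold. Between the 2 knockdown libraries 0 were higher and 2 were lower (RBM47 and HNRNPH2), against 4.41% and 4.63%, 9.04% together. At 1.5-fold, 1 was higher and 10 were lower, against 12.6% and 15.1%, 27.7% together. In HNRNPH2 the lines thus differed by 5.06 in the controls and by -2.61 in the knockdown cells on the log2 scale.

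Genes outside the set but in the same machinery were taken from 3 further lists. Of all genes tested, limma called 5.47% for the knockdown and 4.35% between lines (2.31% higher in LM2). At 2-fold, 10.1% were higher and 6.20% lower in BM1, and 3.83% higher and 4.24% lower in LM2. Of 67 other splicing regulators, 54 were listed and 52 tested, with a median change of -0.07 with knockdown. Among these, limma called none for the knockdown, with 7 at an unadjusted p of 0.05 (24.9% of all genes). In BM1, 7 were at least 2-fold higher (RBM25, RBM39, FUBP3, PNN, LUC7L3, ZRANB2 and SREK1) and 1 lower (LUC7L), and in LM2 2 were lower (PCBP3 and TARDBP). SREK1, an SR-like protein gene, had the largest rise on average, at 5.66, 25.0, 17.0 and 23.4 FPKM (1.20 ± 0.36, log2, standard error, limma adjusted p 0.0886), followed by ZRANB2 (0.87, limma adjusted p 0.118). PCBP3, the poly(C)-binding paralog, was at 3.61, 1.38, 9.76 and 3.94 FPKM, with -1.04 ± 0.25 for the knockdown (log2, standard error, limma adjusted p 0.0505), followed by LUC7L (-0.62, limma adjusted p 0.241). Between lines PCBP3, FUBP1 and RBM3 passed the test, higher in LM2 by 1.14, 1.23 and 1.11 (limma adjusted p 0.0433, 0.0423 and 0.0457), and none did with a pseudocount of 0.1, without the filter or without any 1 library.

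Of 14 further SR protein kinases, phosphatases and importers, 13 were tested and limma called none in either contrast. In BM1, 3 were at least 2-fold higher, PRPF4B, DYRK1A and PPP1CB (10.1% of all genes tested), and in LM2 none changed by 2-fold (8.06%). DYRK1A (0.84) and PRPF4B (0.66) had the largest changes upward on average and PPP1CA (-0.39) and TNPO3 (-0.31) downward, with limma adjusted p-values of 0.134, 0.295, 0.366 and 0.480. Of 15 nonsense-mediated decay factors, all tested, limma called none. In BM1, UPF2, UPF3B and SMG1 were at least 2-fold higher (10.1% of all genes) and SMG6 lower (6.20%). In LM2 none passed (8.06%). UPF2 was at 2.54, 11.0, 7.36 and 9.79 FPKM (1.06, limma adjusted p 0.107) and SMG6, the endonuclease of the pathway, at 18.9, 8.21, 12.4 and 7.29 FPKM (-0.90, limma adjusted p 0.0802). SMG1 (0.75) and CASC3 (-0.30) were next in each direction, with limma adjusted p-values of 0.253 and 0.516.

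Of the 59 genes, 30 overlap another listed gene, 16 on the same strand and 21 on the opposite strand. The libraries were stranded, but no source used here says whether strand entered the counting, so levels of genes with an abundant partner on the opposite strand are uncertain.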

How the data were processed

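RNA from 4 cultures was sequenced as polyadenylated, stranded, paired-end libraries. The authors deposited 1 table of FPKM, per the labels. The submitters' processing notes name STAR 2.5.3a, Cuffdiff 2.2.1 and GRCh37. Of 20369 entries, 40 that repeat the IDs of MUC5AC, ECSCR and COPG2 were left out, and 0 columns were unused. The genes described and the lists were chosen with earlier results of these data known. Genes with a mean of at least 1 FPKM were analysed as log2(FPKM + 1) in limma 3.58.1 (R 4.3.3), with terms for line and treatment, empirical Bayes without trend, two-sided p and Benjamini-Hochberg adjustment over 13928 genes. This scale understates the change of low genes. The line pairs each knockdown with its control, since both come from the same line (Pearson r of their deviations 0.545). Comparisons within a line or treatment hold 1 library a side and used 2-fold, with no test.

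Depth was read from steps in the low FPKM of 1623 genes, where 36.6% to 45.0% of values were whole multiples within 0.02. Too few were whole for a count test. GC content, length, coding sequence and shared 50-base stretches came from GENCODE 29 (GRCh38), matched by gene ID for all 59 genes. No coordinates were converted. The fit was tested on simulated data with independent errors and no trend of the treatment change with GC content. That test does not bear on such trends here. The rule for named genes took HNRNPM, MYEF2, ESRP1, ESRP2, RBM47, every called or 2-fold gene, the 3 largest differences in each direction of both contrasts and the 5 highest levels, 24 genes in all. The other genes were named afterwards to account for every member.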

Additional observations from a re-analysis of the deposited data

Results flagged for a closer look

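HNRNPH2 moved in opposite directions in the lines: knockdown minus control was 5.08 in BM1 and -2.59 in LM2 on the log2(FPKM + 1) scale. The readthrough entry RPL36A-HNRNPH2 overlaps it. The sum of both entries was 17.7 FPKM in BM1 control and 54 in BM1 knockdown cells. In LM2 the sum was 53.1 FPKM in control and 9.84 in knockdown cells. By the sum the directions stayed and the gap in each line was smaller. The difference between the lines was not tested, because each line has 1 library per treatment. The second SRSF8 entry, which no comparison used because its mean was below 1 FPKM, was at 1.07 FPKM in the LM2 knockdown and 1.26 in the BM1 knockdown library, above the 0.167 and 0.1 FPKM of the controls. No group has the 4 libraries that a search for an outlying sample needs.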

How the results depend on the processing

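Counts over all genes moved most. For the knockdown over both lines, limma called 762 genes, 3 of them splicing regulators. The counts were 27 and 0 with a pseudocount of 0.1, 15 and 1 without mitochondrial genes, and 8 and 0 with the GC and length trend removed. They were 0 and 0 with no filter on low genes (limma, 3735 at an unadjusted p of 0.05), with quantile normalization (3255) and with no replicate block, that is without the pairing by line (1548). Fits that leave out a library also drop the term for the other factor, here and between lines, so both choices change together. Leaving out any library gave 0 to 0 genes and 0 regulators (860 to 1943 genes at an unadjusted p of 0.05). Between lines, 606 genes became 216 with a pseudocount of 0.1, 0 with no filter (3634 at an unadjusted p of 0.05), 104 with quantile normalization, 154 without mitochondrial genes, 228 with the trend removed, 11 with no replicate block and 6 to 28 with no block and without a library. The 2-fold counts moved with a pseudocount of 0.1 to 1824 from 1123 genes in LM2, 2636 from 1705 between controls (11 from 6 regulators) and 2013 from 1259 between knockdowns. With a filter of at least 5 FPKM they were 722 in LM2 and 793 between knockdowns (1 from 2 regulators, as with quantile normalization, also 1). At 1.5-fold they were 5262 from 2264 in BM1 (27 from 11 regulators), 3418 in LM2, 4738 between controls (21) and 3865 between knockdowns (11). With the trend removed, 7 regulators passed in BM1 and 2 between controls. The HNRNPH2 change over both lines turned from 1.25 to -1.28 without the BM1 control and -0.06 without the BM1 knockdown library, with a range of -1.28 to 3.78 without each library in turn. Its difference between lines ranged from -1.31 to 3.76 in the same way. MYEF2 over both lines turned from 0.27 to -0.23 with the trend removed, and ranged from -0.45 to 0.98 without each library in turn. Dropping the pairing ended the calls of HNRNPM, MBNL2 and KHDRBS3 and changed no other call of a regulator. Removing mitochondrial genes moved the BM1 median of all genes from 0.00 to 0.11 and that of the regulators from -0.02 to 0.09. The cause of these shifts was not tested.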
